A study of Drosophila melanogaster with 6 samples.

Results

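The genes described here belong to the machinery that forms heterochromatin and removes acetyl groups from histones. They were chosen by name, as a list of 10 genes: the gene of heterochromatin protein HP1a, Su(var)3-9, egg, G9a, HDAC1 (also written Rpd3), HDAC3, HDAC4, HDAC6, Sirt1 (also written Sir2) and Sirt6. The array annotation gave 6 of these 10 genes a probe set of their own, out of 11982 genes named on the array: HP1a, HDAC1, HDAC4, HDAC6, Sirt1 and Sirt6, each with 1 probe set. The histone methyltransferase genes Su(var)3-9, egg and G9a and the deacetylase gene HDAC3 were not analysed here.

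RNA of the proventriculus, the valve where the larval foregut meets the midgut, was measured on 6 Affymetrix arrays of Drosophila melanogaster at larval instar 3. All larvae, controls included, carried hairy-Gal4 and UAS-neoGFP, so that a driver named after the hairy gene switches on the transgene where that driver is active. There were 2 arrays of unchallenged larvae and 2 of larvae challenged with G418, an aminoglycoside toxic to eukaryotic cells. A further array came from F3 unchallenged larvae without past exposure and another from F3 unchallenged larvae whose F1 ancestors had been exposed. The labels do not say how many larvae made up a sample or whether the 2 arrays of a group were separate dissections, so the p-values speak only of array-to-array spread, part of which may be technical.

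Heterochromatin is compact, mostly silent chromatin marked by methylation of lysine 9 on histone H3. HP1a binds that mark and packs the chromatin, while Su(var)3-9, the SETDB1 homologue egg and G9a are the enzymes that write it. Histone deacetylases remove acetyl groups, which are found on active genes: HDAC1 works in the Sin3, NuRD and CoREST repressor complexes, HDAC4 is a class IIa enzyme that shuttles between nucleus and cytoplasm, and HDAC6 acts largely in the cytoplasm, on tubulin among other proteins. Sirt1 and Sirt6 are deacetylases that need NAD+ and so are tied to the metabolic state of the cell.

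Values are log2 expression values from RMA, on which a difference of 1 is 2-fold. Array medians lay between 4.92 and 5.03, and upper quartiles between 7.78 on G418 replicate 1 and 8.1 on unchallenged replicate 2. All 14 measured genes of the proventriculus and foregut list had a mean level at or above the median of all probe sets, 4.98. Arrays differed in markers of other tissues. The summed linear signal of 10 measured nervous system markers was 1400 on unchallenged replicate 2 but only 232 to 276 on the remaining 5 arrays, with the neuronal RNA-binding protein gene fne at 9.69 there and at most 3.92 elsewhere. On the linear scale fne alone made up most of that sum. Of these 10 markers 6 were highest on unchallenged replicate 2, where 28.2% of all genes were. A mean level below 4.98 was found for 6 of the 10. The summed signal of 11 salivary gland markers was 2380 and 38200 in unchallenged larvae, 121000 and 61200 under G418 and at most 1870 in F3 larvae. For Act5C, a control of RNA quality, the 3' signal exceeded the 5' signal by 2.35 on unchallenged replicate 1 and by 1.66 to 1.86 elsewhere. In these dissected tissues fewer cells of a type and less RNA per cell cannot be told apart.

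The first comparison set larvae under G418 against unchallenged larvae. All 6 measured genes had a lower mean with G418, and the differences were small: from 1.06-fold lower for HDAC6 to 1.56-fold lower for HDAC1. None passed the test. The median log2 change over the 6 genes was -0.29, against -0.02 over all 11982 genes and -0.11 over the 7635 genes whose mean level was at or above 4.98, as that of each of the 6 was. A negative change was found for 52.3% of all genes and for 63.9% of those at or above 4.98.

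The HP1a gene, whose product binds methylated histone H3, was at 10.41 and 11.10 on unchallenged replicates 1 and 2 and at 10.43 and 10.40 on G418 replicates 1 and 2. The F3 array without past exposure read 10.69 and the one with it 10.62. Unchallenged replicate 2 stood above the other 5 arrays, and the remaining unchallenged array lay between the G418 arrays. The group means were 10.76 ± 0.49 and 10.42 ± 0.02 (SD, n = 2 each). The log2 change was -0.34 ± 0.27 (SE), or 1.26-fold lower with G418, with an adjusted p of 0.788 in limma. Without unchallenged replicate 2 the change was 0.01, and without unchallenged replicate 1 it was -0.68 (limma adjusted p = 0.322). With an array left out, 1 group has a lone array, which limma assumes to vary like the pair in the other group.

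HDAC1, the catalytic subunit of several repressor complexes, was at 8.21 and 9.12 on the unchallenged arrays and at 7.67 and 8.37 under G418. It was at 8.64 in F3 larvae without past exposure and at 8.56 in those with it. G418 replicate 1 was the lowest of the 6 arrays and unchallenged replicate 2 the highest, while G418 replicate 2 lay 0.16 above unchallenged replicate 1, so the groups overlapped. The group means were 8.66 ± 0.65 and 8.02 ± 0.49 (SD, n = 2 each). The log2 change of -0.64 ± 0.42 (SE) was the largest of the 6 genes, with a 95% interval from -1.79 to 0.50 and an adjusted p of 0.788 in limma. Leaving out 1 array gave changes between -1.10 without unchallenged replicate 1 and -0.19 without unchallenged replicate 2, with -0.30 without G418 replicate 1 and -0.99 without G418 replicate 2. All 4 kept the negative sign.

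HDAC4, the class IIa deacetylase, followed the same layout at its own level. It was at 6.47 and 7.13 in unchallenged larvae, at 5.89 and 6.61 under G418, and at 6.63 and 6.56 in F3 larvae without and with past exposure. The lowest and highest arrays were again G418 replicate 1 and unchallenged replicate 2, and G418 replicate 2 exceeded unchallenged replicate 1 by 0.13. The log2 change was -0.55 ± 0.36 (SE), or 1.47-fold lower, with an adjusted p of 0.788 in limma and a 95% interval from -1.53 to 0.43. Without 1 array it lay between -0.91, without G418 replicate 2, and -0.19, without G418 replicate 1. It was -0.88 without unchallenged replicate 1 and -0.22 without unchallenged replicate 2.

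HDAC6, the largely cytoplasmic deacetylase, had another layout. It was at 8.49 and 7.65 in unchallenged larvae, at 8.09 and 7.87 under G418, and at 7.65 and 7.64 in F3 larvae. Here unchallenged replicate 1 was the highest array, and unchallenged replicate 2 lay within 0.01 of both F3 arrays at the bottom of the range. Both G418 values fell between the 2 unchallenged values. The log2 change was -0.09 ± 0.33 (SE), with an adjusted p of 0.946 in limma and a 95% interval from -0.98 to 0.81. The sign turned to 0.33 without unchallenged replicate 1 and was -0.51 without unchallenged replicate 2. It also turned, to 0.06, after a further quantile normalization.

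Sirt1 varied least of the 6 genes. It was at 9.03 and 9.0 in unchallenged larvae, at 8.75 and 9.02 under G418, and at 9.13 and 9.04 in F3 larvae. Only G418 replicate 1 stood apart, below the other 5 arrays, and its distance of 0.27 from the other G418 array exceeded the mean difference between the groups. The log2 change was -0.13 ± 0.16 (SE), with an adjusted p of 0.836 in limma and a 95% interval from -0.57 to 0.31. That interval does not reach 2-fold in either direction. Without G418 replicate 1 the change was 0.01, and without G418 replicate 2 it was -0.26.

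Sirt6, the other sirtuin measured, was at 5.57 and 5.80 in unchallenged larvae, at 5.09 and 5.79 under G418, and at 5.68 and 5.56 in F3 larvae. G418 replicate 1 was again the lowest, and the other 5 arrays lay within 0.24 of each other. The log2 change was -0.24 ± 0.29 (SE), or 1.18-fold lower, with an adjusted p of 0.826 in limma. Without G418 replicate 1 it turned to 0.11, and without G418 replicate 2 it was -0.60. It was -0.36 without unchallenged replicate 1 and -0.13 without unchallenged replicate 2. These values lie near the array median, where RMA compresses differences.

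**Figure D1:**
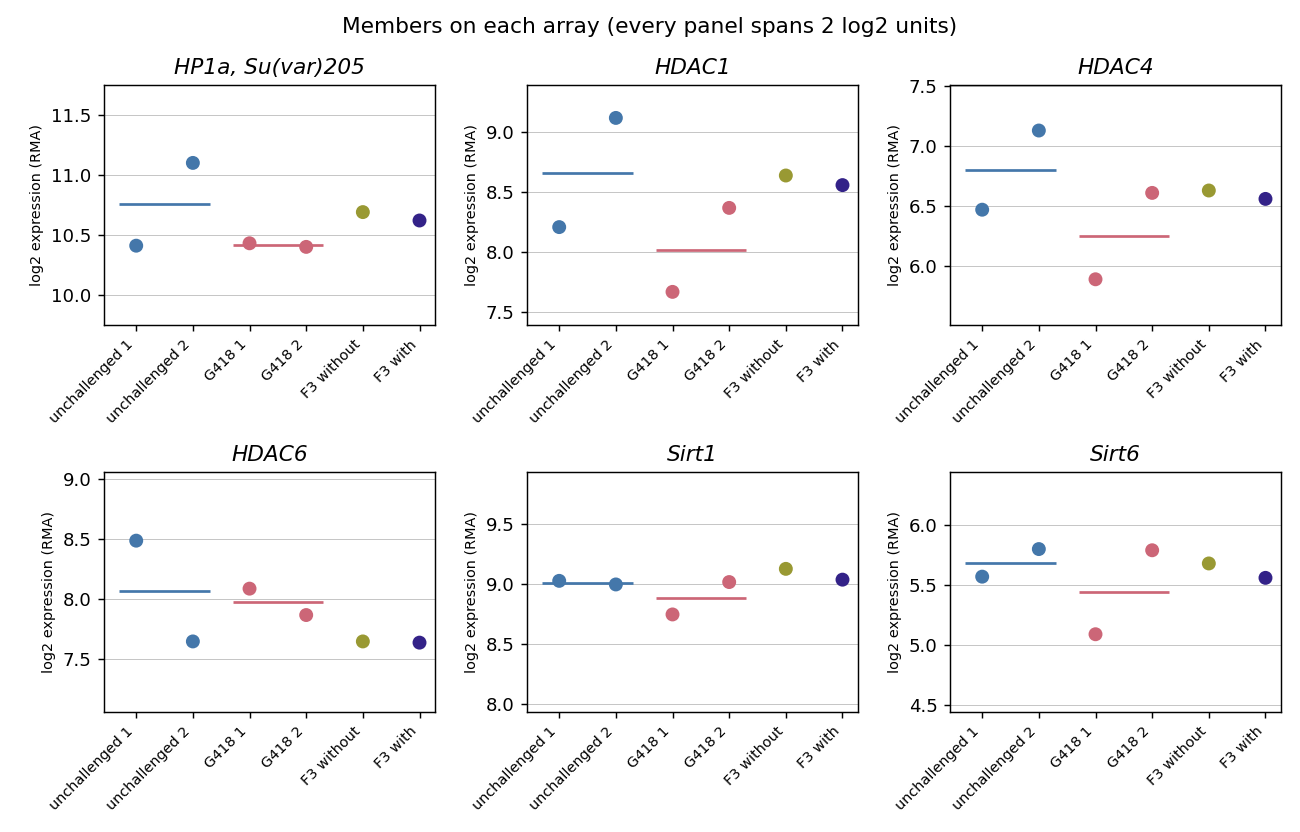
Log2 expression (RMA, vertical axis) of the 6 measured genes on the 6 arrays (horizontal axis), 1 point per array, with horizontal lines at the means of the unchallenged and G418 groups (2 arrays each). G418 replicate 1 is the lowest array for HDAC1, HDAC4, Sirt1 and Sirt6, and unchallenged replicate 2 the highest for HP1a, HDAC1, HDAC4 and Sirt6. Of all genes at or above 4.98, 46.5% are lowest on G418 replicate 1 and 36.2% highest on unchallenged replicate 2.

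Limma called 0 of the 6 genes at an adjusted p under 0.05, where the share over all 18769 probe sets was 0%. At an unadjusted p under 0.05 it also gave 0 of 6, where 664 probe sets (3.54%) met that level; the lowest among the 6 was 0.195, for HDAC1. Without unchallenged replicate 1 these counts were 2 of 6, HP1a and HDAC1, and 2320 over all probe sets. Without another array the count among the 6 was 0, and that over all probe sets was 435 without unchallenged replicate 2, 241 without G418 replicate 1 and 1168 without G418 replicate 2. An exact permutation test of 2 against 2 arrays cannot give a two-sided p under 0.333. The groups overlapped for every one of the 6 genes: 0 had both G418 values under both unchallenged values, where 20.1% of all genes did and 26.2% of those at or above 4.98. Likewise 0 had both G418 arrays above, where 18.3% of all genes did. Because the groups overlapped, the mean change could not exceed the larger of the 2 replicate gaps for any of the 6 genes.

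The overlap differed by array. Against unchallenged replicate 2 alone, both G418 arrays were lower for 4 of 6 genes, HP1a, HDAC1, HDAC4 and Sirt6, where 40.6% of all genes were. Against unchallenged replicate 1 alone they were lower for 2 of 6, HDAC6 and Sirt1, where 32.8% were. In the same way G418 replicate 2 alone lay below both unchallenged arrays for 1 gene, HP1a (29.8% of all genes), and G418 replicate 1 alone for 4 genes, HDAC1, HDAC4, Sirt1 and Sirt6 (41.5%). The median change over the 6 genes was -0.52 without unchallenged replicate 1, -0.16 without unchallenged replicate 2, -0.20 without G418 replicate 1 and -0.46 without G418 replicate 2.

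Replicate arrays took up most of the range of several genes over all 6 arrays. The larger replicate gap was 0.69 of a range of 0.70 for HP1a, 0.84 of 0.85 for HDAC6 and 0.70 of 0.71 for Sirt6. For HDAC1 it was 0.92 of 1.45, for HDAC4 0.71 of 1.24 and for Sirt1 0.27 of 0.38. The order of the arrays within these ranges was therefore not resolved.

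The second comparison set F3 larvae with past exposure of the F1 generation against F3 larvae without it, on 1 array each, so that the differences have no replicate check. These arrays differed in markers of other tissues: the summed linear signal of 5 fat body markers was 1030 without and 12100 with past exposure, that of 8 haemocyte markers 999 and 1930, and that of 7 muscle markers 3800 and 5520. All 8 haemocyte and all 7 muscle markers were higher with past exposure, as were 4 of the 5 fat body markers. Their part in the differences of the 6 genes was not tested. All 6 were lower with past exposure, by 0.01 for HDAC6, 0.06 for HP1a and HDAC4, 0.08 for HDAC1 and Sirt1 and 0.13 for Sirt6 on the log2 scale. The largest of these, for Sirt6, is 1.09-fold. The median difference was -0.07, against 0.02 over all genes, and 46.8% of all genes had a negative difference. The sign for HDAC6 turned, to 0.01, when each array was centred on its median.

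At 2-fold or more, 0 of the 6 genes differed between the F3 arrays, where 1.54% of all genes did, and at 1.5-fold or more also 0 of 6, where 4.44% did. The differences were of a common size: the median difference in size over all genes was 0.13, that of Sirt6. For comparison, the 2 unchallenged arrays differed by 0.92 for HDAC1, 0.84 for HDAC6, 0.69 for HP1a and 0.66 for HDAC4, by 0.23 for Sirt6 and by 0.03 for Sirt1. Both F3 arrays lay between the 2 unchallenged arrays for HP1a, HDAC1 and HDAC4. For HDAC6 they lay 0.42 and 0.43 below the mean of the unchallenged arrays, beside unchallenged replicate 2.

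**Figure D2:**
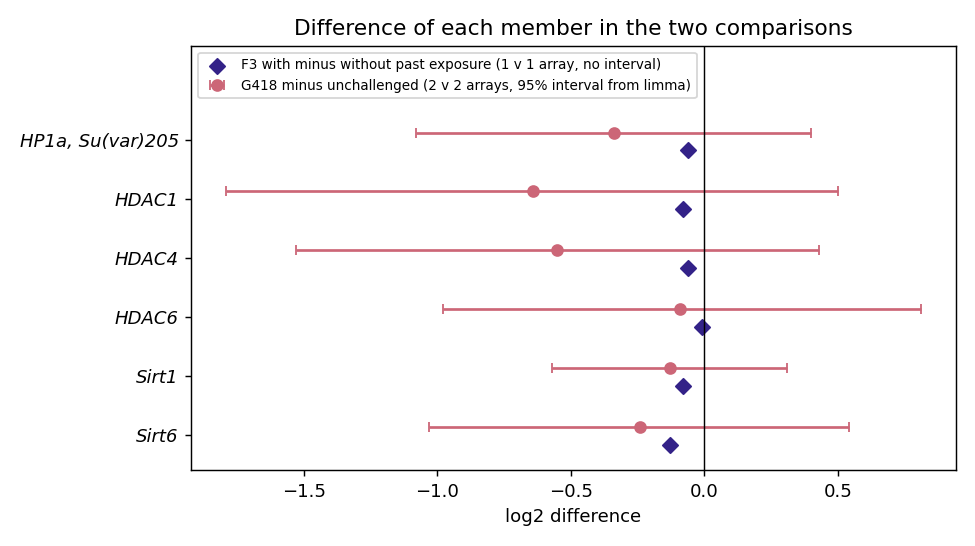
Log2 difference (horizontal axis) of the 6 measured genes. Circles give G418 minus unchallenged (2 against 2 arrays) with 95% intervals from limma, all of which include 0; diamonds give F3 with minus without past exposure (1 array each, no interval), which lie between -0.13 and -0.01.

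The proteins that work with these genes were examined as 4 wider lists. The first held partners of HP1, enzymes of heterochromatin marks and other genes such as Mt2 and JIL-1. It is called HP1 partners for short, though not every gene on it encodes a protein that binds HP1. Of its 27 listed genes 26 were measured. Among these 26, 25 were lower with G418 and 1, HP6, was higher. Among all genes at or above 4.98, 63.9% were lower, with a median change of -0.11. Among the 26, 0 passed the threshold in limma after adjustment over all probe sets, and 2 had an unadjusted p under 0.05, a level met by 3.54% of all probe sets. The list's median log2 change was -0.46, and it ranged from -0.75 without unchallenged replicate 1 to -0.18 without unchallenged replicate 2, with -0.26 without G418 replicate 1 and -0.65 without G418 replicate 2. All but 1 of the 26 had a mean level at or above 4.98. Of the 26, 13 had both G418 values under both unchallenged values, beside 20.1% of all genes and 26.2% of those at or above 4.98. That count was also 13 without unchallenged replicate 2 (32.8% of all genes), 25 without unchallenged replicate 1 (40.6%), 14 without G418 replicate 1 (29.8%) and 22 without G418 replicate 2 (41.5%).

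Hmr, a heterochromatin protein that binds HP1a and is known from hybrid incompatibility between fly species, was at 6.60 and 7.0 on the unchallenged arrays and 6.20 and 6.23 on the G418 arrays, a log2 change of -0.59 ± 0.19 (SE). row, a zinc finger partner of HP1c, was at 8.90 and 9.42 against 8.33 and 8.61, a change of -0.69 ± 0.24. ADD1, an HP1a-binding protein, was at -0.58 ± 0.22, and Hmt4-20, which methylates lysine 20 of histone H4, at -0.72 ± 0.30. These 4 genes were picked as those of the list with the smallest limma p in this same comparison. That their groups did not overlap follows largely from that choice, and limma's adjusted p was 0.788 for each. Among the HP1 paralogues HP1b was at -0.39 and HP1c at -0.24, beside -0.34 for HP1a. HP6 went the other way, at 0.27, from 4.06 and 4.01 to 4.57 and 4.05, all below 4.98. These values were set together after they were seen.

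Subunits of the repressor complexes that carry HDAC1 and HDAC3 formed the second list, with 16 of 22 measured. All 16 had a mean level at or above 4.98 and all 16 were lower with G418, where 63.9% of genes at that level were. Their median log2 change was -0.35, against -0.11 over all genes at that level. The list median was -0.56 without unchallenged replicate 1, -0.15 without unchallenged replicate 2, -0.17 without G418 replicate 1 and -0.54 without G418 replicate 2. For 8 of the 16, both G418 values lay under both unchallenged values, beside 20.1% of all genes and 26.2% of those at or above 4.98. The count was 16 without unchallenged replicate 1 (40.6% of all genes), 8 without unchallenged replicate 2 (32.8%), 8 without G418 replicate 1 (29.8%) and 15 without G418 replicate 2 (41.5%). Limma passed 0 of them, and 0 had an unadjusted p under 0.05, a level met by 3.54% of all probe sets. MTA1-like, of the NuRD complex, was at 7.48 and 7.71 on the unchallenged arrays and 7.16 and 7.26 on the G418 arrays, a log2 change of -0.39 ± 0.16 (SE) with an adjusted p of 0.788 in limma. The NuRD remodeller Mi-2 was at -0.44 ± 0.23, CoRest, the scaffold of the CoREST complex, at -0.38 ± 0.18 and Sap30, of the Sin3 complex, at -0.33 ± 0.16. MTA1-like, Mi-2, CoRest and Sap30 were picked as the genes of the list with the smallest limma p in this same comparison. Changes of all 16 genes ran from -0.7 to -0.02.

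Of the 4 deacetylase and sirtuin genes outside the list of 10, Sirt7 was lower with G418 and 3 were higher. Sirt7, a nuclear sirtuin in mammals, was at -0.33 ± 0.15 (SE), from 7.35 and 7.55 to 7.14 and 7.10. HDAC11 was at 0.22 ± 0.13, from 4.67 and 4.70 to 4.92 and 4.90, all 4 values near the array median. Sirt4, mitochondrial in mammals, was at 0.18 ± 0.20 and Sirt2, largely cytoplasmic in mammals, at 0.07 ± 0.14. None passed in limma, where the adjusted p lay between 0.788 and 0.898. The median of these 4 genes was 0.12.

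The opposing enzymes, histone acetyltransferases and their complex subunits, were measured for 17 of 18 listed genes. Their median log2 change was -0.12, near the -0.11 of all genes at or above 4.98, and it turned to 0.03 after a further quantile normalization. For 9 of the 17 (52.9%) both G418 values lay under both unchallenged values, where 26.2% of genes at or above 4.98 did. Here 13 were lower and 4 higher with G418, where 63.9% of genes at or above 4.98 were lower. Limma passed 0, with 0 at an unadjusted p under 0.05, a level met by 3.54% of all probe sets. The MYST family enzyme genes chm, enok and mof were at -0.65 ± 0.31, -0.42 ± 0.17 and -0.36 ± 0.15 (SE), and Ing5, a subunit of such complexes, at -0.32 ± 0.14. These genes were picked as those of the list with the smallest limma p in this same comparison. Changes of all 17 genes ran from -0.65 to 0.21. nej, which encodes the CBP acetyltransferase, was at 0.12 ± 0.24.

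**Figure D3:**
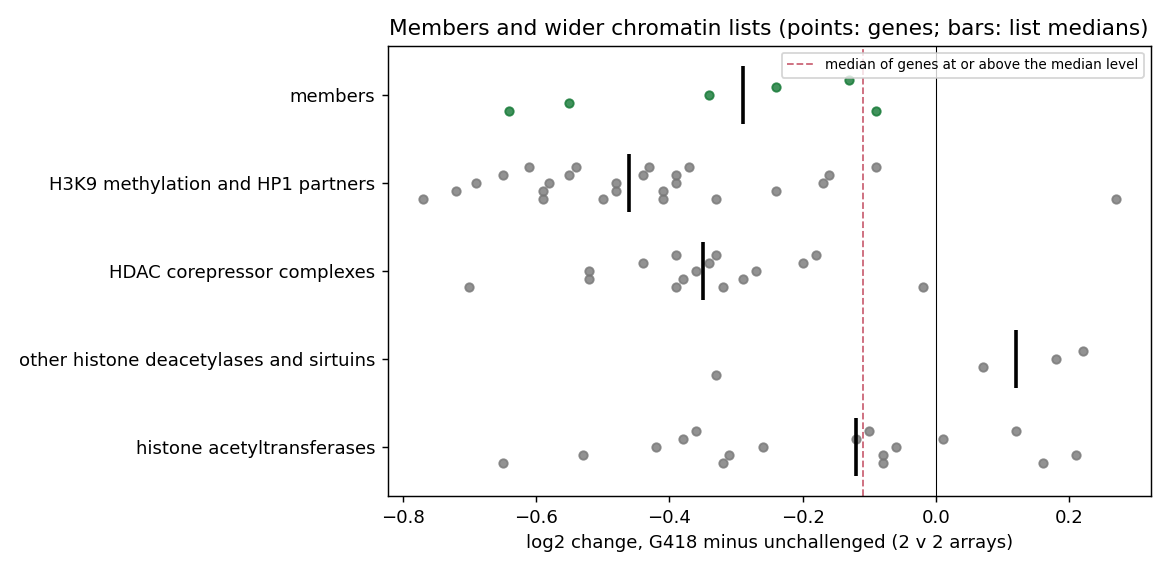
Log2 change with G418 (horizontal axis, 2 against 2 arrays) of each measured gene of the 10 listed (6 points) and of 4 wider chromatin lists (26, 16, 4 and 17 points); black bars are list medians and the dashed line is the median of genes at or above 4.98. The medians are -0.29, -0.46, -0.35, 0.12 and -0.12 from top to bottom.

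Between the F3 arrays these lists also differed little. The median difference, with minus without past exposure, was -0.03 for HP1 partners, -0.01 for repressor complex subunits, -0.18 for the other deacetylases and sirtuins and -0.12 for acetyltransferases. Over all genes the median difference was 0.02 and its median size 0.13. None of the 63 genes reached 1.5-fold, where 4.44% of all genes did. Su(var)3-7, a zinc finger protein that binds HP1a, differed most among HP1 partners, at 5.27 without and 5.70 with past exposure, and Sap30 most among repressor complex subunits, at 9.52 and 9.08. For Sirt7 the difference was -0.26 and for nej 0.32.

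Taken relative to each gene's mean over the 6 arrays, the median of the 6 genes was 0.35 on unchallenged replicate 2 and -0.37 on G418 replicate 1, with the remaining 4 arrays at -0.05 to 0.09. This median does not describe each of them: HDAC6 was low on unchallenged replicate 2 and second highest on G418 replicate 1, and Sirt1 did not stand out on unchallenged replicate 2. HP1 partners stood at 0.41 and -0.47 on those 2 arrays, and 14 measured cell cycle and DNA replication genes at 0.57 and -0.54, where all genes at or above 4.98 stood at 0.07 and -0.15. Tissue markers also differed on these 2 arrays. Nervous system markers stood at 0.43 on unchallenged replicate 2, where their summed signal was highest, and at -0.23 on G418 replicate 1. Salivary gland markers stood at 0.99 and 3.45 on these arrays, and the genes of the proventriculus and foregut list at 0.19 and -0.53. The latter list had a median log2 change of -0.44 with G418, against -0.11 over all genes at or above 4.98. Both G418 values lay under both unchallenged values for 7 of its 14 genes, beside 26.2% of genes at or above 4.98. The part of tissue composition in the values of the 6 genes was not tested. Among the cell cycle genes CycB, which encodes cyclin B, had the widest range, with 6.96 on G418 replicate 1 as its lowest value and 8.70 on unchallenged replicate 2 as its highest.

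**Figure D4:**
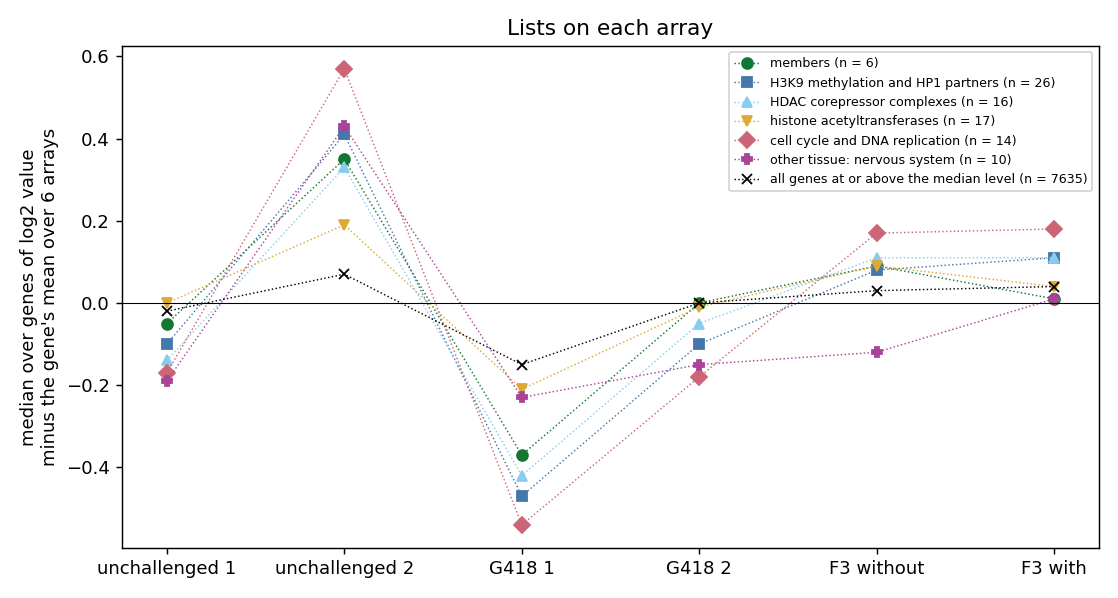
Median over the genes of a list of the log2 value minus each gene's mean over the 6 arrays (vertical axis), by array (horizontal axis); lines only join the points of a list. The 6 measured genes stand at 0.35 on unchallenged replicate 2 and -0.37 on G418 replicate 1, between the cell cycle genes (0.57 and -0.54) and all genes at or above 4.98 (0.07 and -0.15).

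The genes with the most similar values were sought for HDAC1, HDAC4 and HDAC6, the 3 with the widest range, among 4631 genes with a mean level of at least 4.98 and an SD over the arrays of at least 0.2, by Pearson's r over the 6 arrays, which share tissue, platform and normalization. For HDAC1 these were CG8478 (r = 0.999) and Dlish (0.997), a gene of the Fat and Dachsous growth pathway, at 6.45 on G418 replicate 1, its lowest, and 7.99 on unchallenged replicate 2, its highest. Such likeness was common: 941 genes (20.3%) had r above 0.9 with HDAC1 and 752 (16.2%) with HDAC4, whose closest were CG11902 (0.997) and CG11122 (0.996). HDAC6 was less matched, with 48 genes (1.04%) above 0.9, led by CG13067 (0.987) and CG1544 (0.976).

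Neighbouring genes were looked up by their order in the RefSeq annotation. HP1a overlaps CG8419, which was at 0.17 ± 0.19 (SE) with G418, and Sirt1 overlaps the chaperone cofactor gene DnaJ-H, which was at 0.03 ± 0.15. On either side of Sirt1 lie kmg, at 0.41 ± 0.14, and Sfmbt, a Polycomb group gene, at -0.54 ± 0.25. For kmg both G418 arrays lay above both unchallenged arrays, as for 18.3% of all genes. For Sfmbt both lay below, as for 20.1%. They also lay below for Ssb-c31a beside HP1a and axo beside HDAC1, and above for CG9114 beside HDAC6. For the other measured neighbours of the 6 genes the groups overlapped. Beside Sirt6 lies pont, a subunit gene of chromatin remodelling complexes, at -0.26 ± 0.25. Whether probes of an overlapping pair read both transcripts was not tested.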

How the data were processed

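Proventriculus RNA was measured on 6 Affymetrix Drosophila 2.0 arrays. Per the submitters' processing notes, the authors used Affymetrix Expression Console to turn probe intensities into the deposited log2 values by RMA, which corrects background, normalizes across arrays, summarises each probe set and compresses differences between dim ones. Not given in the sources used here are its version, array dates and whether the 6 arrays were normalized as 1 set. Arrays have no sequencing depth, and their number limits precision.

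Of 18952 probe sets, 183 controls were left out and 18769 were tested. Names came from the platform annotation, with symbols updated through RefSeq (assembly Release 6): 13647 probe sets had 1 symbol, 402 several and 4720 none, and 103 kept an older symbol. Where a gene had several probe sets, the one of highest mean level was used. Promoter motifs and protein likeness, planned at first, were not analysed here.

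The 2 G418 arrays were tested against the 2 unchallenged arrays in limma 3.58.1 (R 4.3.3; lmFit, then eBayes), with Benjamini-Hochberg adjustment over all probe sets and a threshold of 0.05. The fit was tested on simulated data. The F3 arrays, 1 each, were described without a test. The members and lists were chosen with earlier results of these data known. Named from each wider chromatin list were up to 4 genes with the smallest p and the gene with the largest F3 difference, and from each other-tissue list the gene with the widest range, where a result turned on it. HP1b, HP1c, HP6 and the neighbouring genes are named outside that rule. Alternatives covered the pairing, variance prior, normalization, a filter on dim probe sets, the probe set of a gene, thresholds and each array left out.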

Additional observations from a re-analysis of the deposited data

How the results depend on the processing

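The count of the 6 genes past the adjusted threshold was 0 under each of the 13 alternatives run. Over all probe sets the count was 0 at first, 1 with a trended variance prior, 1 with a trended and robust prior, 1 at an adjusted p of 0.10, and between 0 and 251 with 1 array left out (251 without unchallenged replicate 1 and 4 without unchallenged replicate 2), fits in which the spread comes from the pair left in the other group alone. The labels do not say that a replicate number pairs arrays; deviations of same-numbered arrays correlated at 0.315 over probe sets. With the replicate number as a block, limma called 0 probe sets and gave HDAC1 -0.64 ± 0.13 (SE, adjusted p = 0.36) and HDAC4 -0.55 ± 0.12 (adjusted p = 0.367), the only 2 of the 6 at an unadjusted p under 0.05. In that fit 2187 of the 18769 probe sets met that level, against 664 without the block.

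With 1 array left out the median change ranged from -0.52 to -0.16 over the 6 genes, from -0.75 to -0.18 over HP1 partners, from -0.56 to -0.15 over repressor complex subunits, from 0.04 to 0.18 over the other deacetylases and sirtuins, and from -0.35 to -0.07 over acetyltransferases. The range for single genes was -0.68 to 0.01 for HP1a, -0.51 to 0.33 for HDAC6, -0.26 to 0.01 for Sirt1 and -0.60 to 0.11 for Sirt6. The count of the 6 genes with the G418 arrays below the unchallenged arrays ranged from 1 to 4, beside 29.8% to 41.5% of all genes. The count above them ranged from 0 to 1, and the share over all genes in that direction is not given here. These counts, and the same for the wider lists, were added after the data were seen. A further quantile normalization gave 0.18 for the other deacetylases and sirtuins, 0.03 for acetyltransferases and 0.06 for HDAC6. Median centring turned the F3 difference of HDAC6 to 0.01. Against the mean of the unchallenged arrays Sirt1 was at 0.03 on the F3 array with and 0.11 on the one without past exposure, and Sirt6 at 0.00 on the latter. The cause of these shifts was not tested.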
